A study of Mus musculus with 20 samples.

Results

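The 34 genes described here mark the neutrophil lineage. Their transcripts were measured in bone marrow of mice transplanted with murine T-cell acute lymphoblastic leukemia (T-ALL). They were chosen by a list of symbols, drawn up with earlier results of these data known, and all 34 were found by Ensembl identifier among the 39017 genes of the table. Each leukemia had arisen in a C57Bl/6 x 129Sv/Jae mouse after insertional mutagenesis with the MOL4070LTR retrovirus, and its cells had then been transplanted into irradiated wild-type recipients of the same cross. RNA from the marrow of such recipients was sequenced. There were 10 leukemias (4638, 73A, 20M, 78A, 73M, 2M, 5C, JW81, 8633 and JW14) with 2 libraries each, which gives 20 libraries. In every leukemia the column name of 1 library holds the letters VEH and that of the other DEX. Neither the labels nor the text of the study explains these letters, so DEX and VEH are compared below as column names, and no treatment, dose or time is attached to them. The labels do not give the genotype of the mouse in which a leukemia arose, and no grouping by genotype was used here. The study's text does not name leukemia 4638 among those whose RNA was sequenced. It is included here, and values without it are given beside several results. Each leukemia is a single tumor line, and nothing says whether its 2 libraries came from separate recipients, so the spread between them may be partly technical.

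Neutrophils form in the marrow from promyelocytes through myelocytes and metamyelocytes to band and segmented cells. Granule proteins are made in that order. Promyelocytes transcribe the genes of the primary granules, such as myeloperoxidase and the serine proteases, and later stages transcribe those of the secondary and tertiary granules, such as lactoferrin, lipocalin and the matrix metalloproteinases. C/EBP-epsilon is needed for the secondary granules, and the receptor for granulocyte colony-stimulating factor (*Csf3r*) supports the whole lineage. Marrow that holds transplanted lymphoblasts can also hold host neutrophils, since irradiated recipients keep or rebuild part of their own hematopoiesis.

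The early granule genes were *Mpo*, *Elane*, *Prtn3* and *Ctsg*. The late granule genes were *Ltf*, *Camp*, *Ngp*, *Lcn2*, *Pglyrp1*, *Mmp8*, *Mmp9*, *Chil3*, *Cd177* and *Hp*. The 250 bases before the RefSeq start (GRCm38.p6) of 1 early and 4 late granule genes are shown, in the direction of transcription, because the contrast between these gene sets runs through the results. RefSeq starts can lie inside the gene as GENCODE draws it, and the genes shown are those granule genes with at most 30 bases of the window inside it (21 for *Ltf*, 0 for the others). Capitals mark every match to TTGCNNAA, a core bound by C/EBP factors, or to GAGGAA, a core bound by PU.1, on either strand. The windows lie at chr14:56102575-56102824 (minus strand) for *Ctsg*, chr9:111019042-111019291 (plus strand) for *Ltf* and chr9:7558179-7558428 (plus strand) for *Mmp8*. Those of *Chil3* and *Cd177* lie at chr3:106167565-106167814 and chr7:24760312-24760561 (both minus strand).
Ctsg: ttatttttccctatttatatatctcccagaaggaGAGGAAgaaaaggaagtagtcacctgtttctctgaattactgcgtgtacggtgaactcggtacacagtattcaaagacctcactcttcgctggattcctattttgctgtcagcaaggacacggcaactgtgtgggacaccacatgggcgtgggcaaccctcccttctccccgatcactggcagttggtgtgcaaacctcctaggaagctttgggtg
Ltf: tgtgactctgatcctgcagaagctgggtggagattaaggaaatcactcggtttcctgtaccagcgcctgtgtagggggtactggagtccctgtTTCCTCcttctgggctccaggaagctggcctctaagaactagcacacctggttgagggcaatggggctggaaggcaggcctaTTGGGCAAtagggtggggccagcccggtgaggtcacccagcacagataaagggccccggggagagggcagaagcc
Mmp8: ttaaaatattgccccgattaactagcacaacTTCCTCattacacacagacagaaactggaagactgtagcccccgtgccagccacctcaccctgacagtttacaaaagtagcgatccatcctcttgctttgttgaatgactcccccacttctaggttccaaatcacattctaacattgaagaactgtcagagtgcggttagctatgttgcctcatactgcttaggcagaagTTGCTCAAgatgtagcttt
Chil3: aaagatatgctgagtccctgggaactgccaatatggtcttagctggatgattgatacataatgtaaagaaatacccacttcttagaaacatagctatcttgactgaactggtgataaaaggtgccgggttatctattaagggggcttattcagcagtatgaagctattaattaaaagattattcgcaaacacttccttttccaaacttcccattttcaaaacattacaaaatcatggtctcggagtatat
Cd177: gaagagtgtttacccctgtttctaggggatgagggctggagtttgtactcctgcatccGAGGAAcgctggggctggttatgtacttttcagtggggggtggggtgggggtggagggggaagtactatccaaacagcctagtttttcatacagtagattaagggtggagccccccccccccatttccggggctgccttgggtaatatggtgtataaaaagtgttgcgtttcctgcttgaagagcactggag

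*Ltf* and *Mmp8* hold 1 match to each motif. *Ctsg* and *Cd177* hold 1 match to GAGGAA and 0 to TTGCNNAA, and *Chil3* holds 0 matches to either. A window of this length was found for 30 of the 34 members, leaving out *Hp*, *Mmp9*, *Cebpe* and *Wfdc21*, and a member with several windows was counted once. In 14 of these 30 members, *Mpo*, *Elane* and *Lcn2* among them, more than 30 bases of each window lie inside the GENCODE gene, so the counts that follow cover transcribed bases as well. TTGCNNAA was present in 11 of these 30 members (36.7%), in 0 of 4 early granule genes and in 4 of 8 late granule genes, against 9.56% of all 32851 windows. GAGGAA was present in 18 of 30 members (60.0%), in 4 of 4 early and 5 of 8 late granule genes, against 23.3% of all windows. The overlapping PU.1 core GGAAGT was in 17 of 30 members (19.7% of all windows), and the RUNX core TGTGGT in 7 of 30 (14.0%). A looser C/EBP core, TTNNGNAA, which can overlap the first, was in 19 of 30 members (36.8%), and the longer PU.1 form AGAGGAAGT in 1 of 30 (0.798%). These letters, and the windows shown, were chosen after the counts had been seen. The counts are a description without a test, a match is not evidence of binding, and its absence says only that the letters are not in the window.

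The libraries held 8226528 to 201222288 counts (median 23032916), the fewest in the DEX library of JW14 and the most in the VEH library of 73M. Counts on ribosomal RNA genes, leaving mitochondrial ones aside, exceeded 1 per M counts in 5 libraries. In 20M, 73M, JW14 and JW81 this was the library labelled DEX and in 5C the one labelled VEH. They stand apart from the other libraries, so comparisons between the columns are also given for the 5 leukemias without such a library (4638, 73A, 78A, 2M and 8633) and the 5 with one. The 12 T lineage genes had a summed level of 269.2 (4638 DEX) to 1315 (78A VEH) FPKM (fragments per kilobase of exon and per M counts of the library), and 10 of them had at least 3 counts in all 20 libraries, *Cd7* and *Cd8a* falling below that in JW14 DEX. In 4638, 7 of the 12 lay below all other 18 libraries. There *Cd2* was at 1.06 (VEH) and 1.32 FPKM (DEX) against 17.9 FPKM or more elsewhere, *Cd5* at 0.263 and 0.1996 FPKM against 3.45 FPKM or more, *Cd8b1* at 0.962 and 0.639 FPKM against 9.29 FPKM or more, and *Cd3d* at 14.2 and 8.60 FPKM against 50.9 FPKM or more. *Cd3e*, *Cd4*, *Cd7*, *Cd8a* and *Thy1* did not lie below all others. In 4638, *Cd4* was at 60.3 (VEH) and 35.4 FPKM (DEX), against a lowest value elsewhere of 1.23 FPKM (JW81 DEX). *Cd8a* was at 68.3 and 45.9 FPKM against 0.0334 FPKM (JW14 DEX), and *Thy1* at 90.5 and 95.9 FPKM against 67.8 FPKM (5C VEH). The leukemia with the highest member levels was also the one with the lowest T lineage score (mean log2 level of the list).

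All members that could be tested differed between leukemias. Of the 34 members, 32 had a mean of at least 1 FPKM and entered the test, and *Ly6g* and *Il1b* did not. All 32 were called between leukemias (edgeR quasi-likelihood F test with Benjamini-Hochberg adjustment, adjusted p 4.97e-10 for *Mmp9* to 0.00130 for *Stfa2l1*), against 87.5% of the 11560 genes tested, so a call in this comparison was the usual outcome. Their order was largely shared. Leukemia 4638 had the highest mean level for 33 of 34 members, and JW14 the lowest for 28. In these bulk samples, fewer cells of a type and less RNA per cell cannot be told apart.

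**Figure D1:**
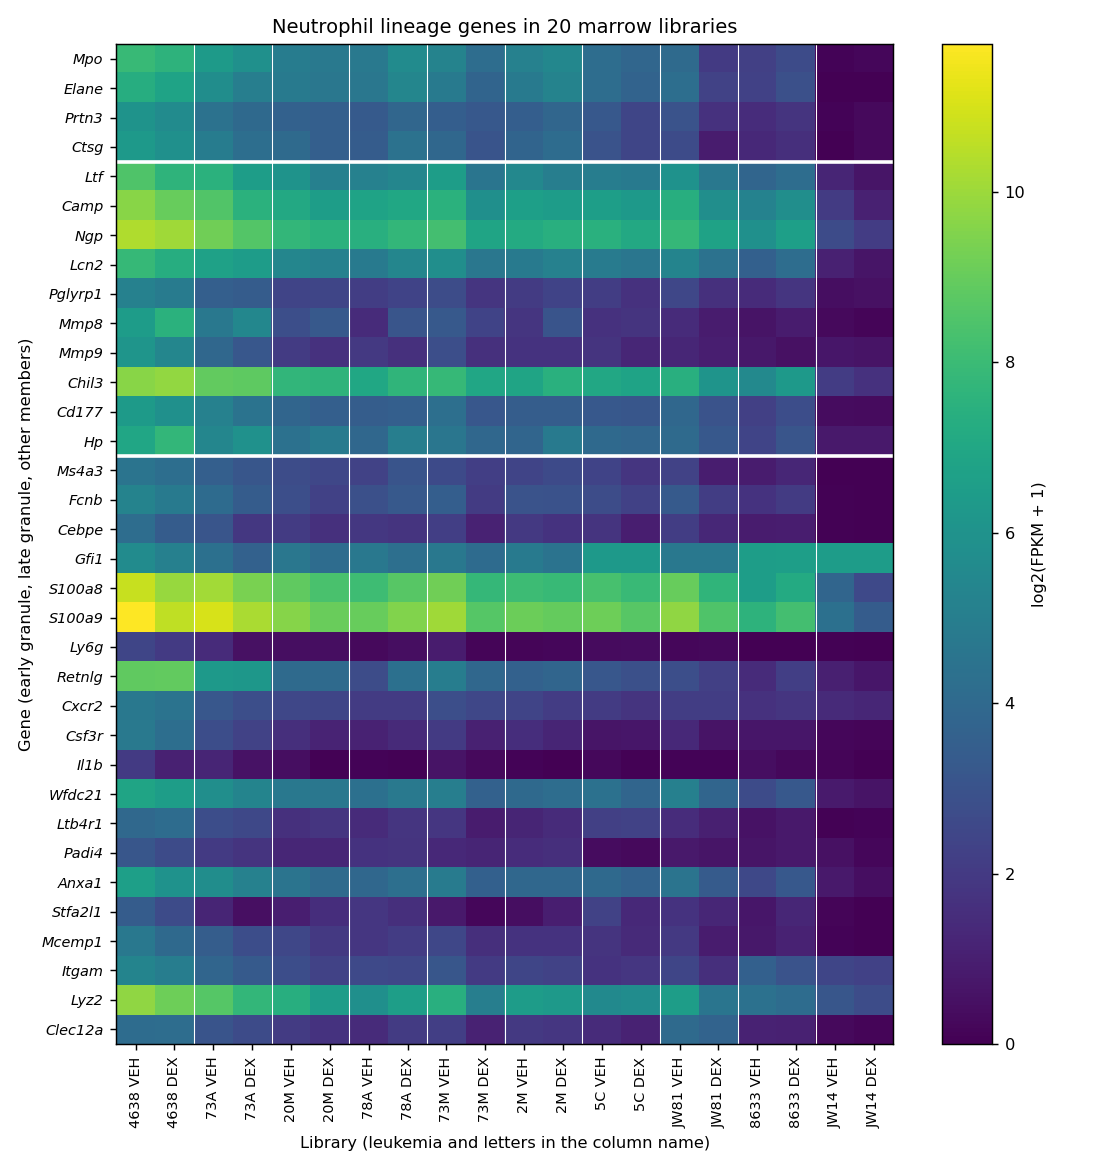
Level of each of the 34 neutrophil lineage genes (rows) in the 20 libraries (columns), as log2(FPKM + 1) on the colour scale at the right. Rows are grouped from top to bottom as 4 early granule genes, 10 late granule genes and the other members, and the leukemias run from the highest mean level of the members (4638) to the lowest (JW14). Most rows darken from left to right, and *Gfi1* does the opposite.

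Myeloperoxidase (*Mpo*, ENSMUSG00000009350, chromosome 11 of GRCm38, 87793581 to 87804413, plus strand) makes hypochlorous acid in primary granules. It was at 242 (VEH) and 192.1 FPKM (DEX) in 4638, at 82.3 and 58.6 FPKM in 73A, and at 0.0696 and 0.142 FPKM in JW14. Over the 10 leukemias its median level was 27.6 FPKM. The libraries of 4638 were thus above those of every other leukemia, and those of JW14 below. With 13 counts over both JW14 libraries, the ratio of 4638 to JW14 was 2053 for *Mpo*, the largest of any member with more than 3 counts in JW14.

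Neutrophil elastase (*Elane*, ENSMUSG00000020125, chromosome 10, 79886247 to 79888215, plus strand), proteinase 3 (*Prtn3*) and cathepsin G (*Ctsg*) are the serine proteases of the same granules. *Elane* was at 160 (VEH) and 112 FPKM (DEX) in 4638 and had a median of 23.02 FPKM over the leukemias. It had 0 counts in both libraries of JW14, where 3 counts would be 0.0807 FPKM in the VEH and 0.371 FPKM in the DEX library, so its level was at least 602-fold higher in 4638. *Prtn3* ranged from 0.151 FPKM in JW14 to 57.2 FPKM in 4638 and *Ctsg* from 0.130 to 69.6 FPKM. *Ms4a3* and *Fcnb* (ficolin B), which are also transcribed in promyelocytes and myelocytes, had the same extremes, at 0.0141 to 19.8 FPKM and 0.0198 to 32.2 FPKM. The JW14 values of *Ms4a3* and *Fcnb* rest on 2 counts each over both libraries, and that of *Ctsg* on 3, so these lowest levels are uncertain.

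Among the late granule genes, lactoferrin (*Ltf*, ENSMUSG00000032496, chromosome 9, 111019271 to 111042767, plus strand), an iron-binding protein, was at 360.0 (VEH) and 198 FPKM (DEX) in 4638 and at 1.35 and 0.564 FPKM in JW14. Its median over the leukemias was 40.8 FPKM. Neutrophilic granule protein (*Ngp*) and cathelicidin (*Camp*), an antimicrobial peptide, were the late granule genes with high levels beside *Chil3*, a chitinase-like protein. *Ngp* ranged over leukemias from 4.33 to 1181 FPKM (median 179), *Camp* from 2.12 to 656 FPKM (median 111) and *Chil3* from 2.71 to 861 FPKM (median 154). Lipocalin 2 (*Lcn2*), which binds bacterial siderophores, ranged from 0.841 to 195 FPKM. The other late granule genes were lower, with leukemia medians of 19.6 FPKM for haptoglobin (*Hp*), 10.5 FPKM for the surface antigen *Cd177*, 4.79 FPKM for collagenase *Mmp8*, 3.74 FPKM for *Pglyrp1* and 2.36 FPKM for gelatinase *Mmp9*. All 10 were highest in 4638, and all except *Mmp9*, which was lowest in 8633 (0.556 FPKM), were lowest in JW14.

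By their median over the leukemias, the members with the highest levels were *S100a9* and *S100a8*. They are the subunits of calprotectin, a calcium- and zinc-binding complex of the neutrophil cytosol. Single libraries departed from this order. In JW14 *Gfi1* was higher than both, at 89.0 (VEH) and 88.0 FPKM (DEX), and in 4638 DEX *Ngp* (1056 FPKM) was above *S100a8*. *S100a9* was at 3409.9 (VEH) and 1564 FPKM (DEX) in 4638, at a leukemia median of 620.5 FPKM, and at 19.3 and 9.55 FPKM in JW14. *S100a8* was at 1739 and 977 FPKM in 4638 and at 13.3 and 5.08 FPKM in JW14. The ratio of *S100a8* to *S100a9* stayed between 0.472 and 0.687 in all 20 libraries while the levels themselves spanned more than 2 orders of magnitude. Lysozyme (*Lyz2*), which monocytes also transcribe, ranged from 6.79 FPKM in JW14 to 725 FPKM in 4638.

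Genes that are transcribed late in maturation had lower levels than calprotectin. *Retnlg*, a resistin-like secreted protein, stood out by its range, from 0.843 FPKM in JW14 and a median of 12.4 FPKM to 463 (VEH) and 476 FPKM (DEX) in 4638. The chemokine receptor *Cxcr2* was at 24.6 and 20.9 FPKM in 4638 and at 1.41 to 7.99 FPKM in the other 18 libraries. *Csf3r* ranged from 0.122 to 21.7 FPKM, the leukotriene B4 receptor *Ltb4r1* from 0.0626 to 15.7 FPKM and *Padi4*, the enzyme that citrullinates histones, from 0.277 FPKM in 5C to 6.63 FPKM in 4638. *Ly6g*, the surface antigen that defines mature mouse neutrophils in sorting, was at 4.55 and 2.99 FPKM in 4638, at 0.457 to 1.69 FPKM in 73A, and at 0 in both libraries of 8633 and the DEX library of JW14. *Il1b*, an inflammatory cytokine, was at 3.01 and 1.10 FPKM in 4638 and at 1.33 FPKM or less elsewhere. *Wfdc21*, *Anxa1*, *Mcemp1* and *Stfa2l1* had leukemia medians of 21.8, 15.9, 2.61 and 1.21 FPKM and were also highest in 4638 and lowest in JW14. Of the 34 members, 22 had at least 3 counts in all 20 libraries. Over both libraries of JW14, *Ltb4r1* had 3 counts and *Stfa2l1* had 2, so their lowest levels are uncertain.

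Leukemias 4638 and JW14 were compared as the extremes of this order. For the 26 members with more than 3 counts over the libraries of JW14, the ratio of 4638 to JW14 had a median of 175 and ranged from 0.4659 (*Gfi1*) to 2053 (*Mpo*). The members together took 1.310% of all counts in the VEH library of 4638 (95% Wilson interval 1.305% to 1.315%) and 0.0341% in the DEX library of JW14 (0.0329% to 0.0354%). These intervals cover counting error only. Most of the member counts of JW14 were those of *Gfi1*, with 10715 of 14216 in the VEH and 2308 of 2808 in the DEX library. Without *Gfi1* the share was 1.294% in 4638 VEH (1.289% to 1.299%), and in JW14 it was 0.00927% in VEH (0.00897% to 0.00958%) and 0.00608% in DEX (0.00557% to 0.00663%).

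The shared order was measured for each member as Pearson's r between its level and the mean level of the other 33, on log2(FPKM + 1) over the 10 leukemias. This r is a description, since all members come from the same libraries. It was at least 0.9 for 26 members and highest for *Hp* (0.997) and *Cd177* (0.993). The members outside this range were *Mmp9* (0.898), *Padi4* (0.873), *Ly6g* (0.858), *Il1b* (0.782), *Clec12a* (0.769), *Stfa2l1* (0.705), *Itgam* (0.672) and *Gfi1* (-0.54).

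*Gfi1* (ENSMUSG00000029275, chromosome 5, 107716657 to 107726036, minus strand), a zinc-finger transcriptional repressor that neutrophil development requires and that lymphoid cells also use, ran against the other members. It was at 79.0 (VEH) and 81.0 FPKM (DEX) in 5C, at 92.4 and 93.4 FPKM in 8633 and at 89.0 and 88.0 FPKM in JW14. In the other 7 leukemias it was between 11.7 and 48.9 FPKM. The 3 leukemias with the highest *Gfi1* were among the 4 with the lowest mean level of the members. *Itgam* (CD11b), an integrin of neutrophils, monocytes and other cells, was at 11.2 and 7.0 FPKM in 8633. Its mean there (9.10 FPKM) was above that of 6 leukemias whose members were higher on average, although 73M VEH (7.80 FPKM) exceeded 8633 DEX. *Clec12a*, an inhibitory lectin receptor, was at 15.8 and 12.4 FPKM in JW81, close to 16.9 and 17.6 FPKM in 4638, and at 7.34 FPKM or less in the other 8 leukemias.

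To place the leukemias in order, a score was calculated for each library as the mean of log2(FPKM + 1) over a list. The score of all 34 members was 3.63 ± 1.34 (SD, n = 10 leukemias). It was 6.20 in 4638 and 4.83 in 73A, then 3.83 in 20M, 3.75 in 78A, 3.72 in 73M and 3.65 in 2M. Below these came 3.36 in 5C, 3.29 in JW81, 2.64 in 8633 and 1.01 in JW14. The libraries of 4638, 73A, 8633 and JW14 did not overlap with those of any neighbour in the order. The libraries of the other 6 leukemias overlapped in most pairs or lay close to each other, with those of 20M at 3.71 to 3.95, of 2M at 3.59 to 3.71 and of 5C at 3.22 to 3.51, so the order of these 6 was not resolved. The gap between the 2 libraries was largest in 73M (1.02) and JW81 (0.93) and smallest in 2M (0.12).

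The early granule score was 3.71 ± 1.81 (SD, n = 10), from 0.13 in JW14 to 6.70 in 4638, and the late granule score 4.55 ± 1.71, from 1.02 to 7.62 in the same leukemias. The scores moved together over the leukemias (Pearson's r = 0.96, Spearman's rho = 0.89, n = 10, and r = 0.86 without 4638 and JW14), again over values from the same libraries. The late score was the higher in 10 of 10 leukemias, by 0.84 ± 0.48. This difference was smallest in 2M (0.05) and largest in JW81 (1.64). In JW81 the early score lay at 3.49 (VEH) and 1.70 (DEX) while the late score lay at 4.71 and 3.75, so its early granule genes were low relative to its late ones, above all in the DEX library. In 2M and 78A early and late scores were nearly level.

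**Figure D2:**
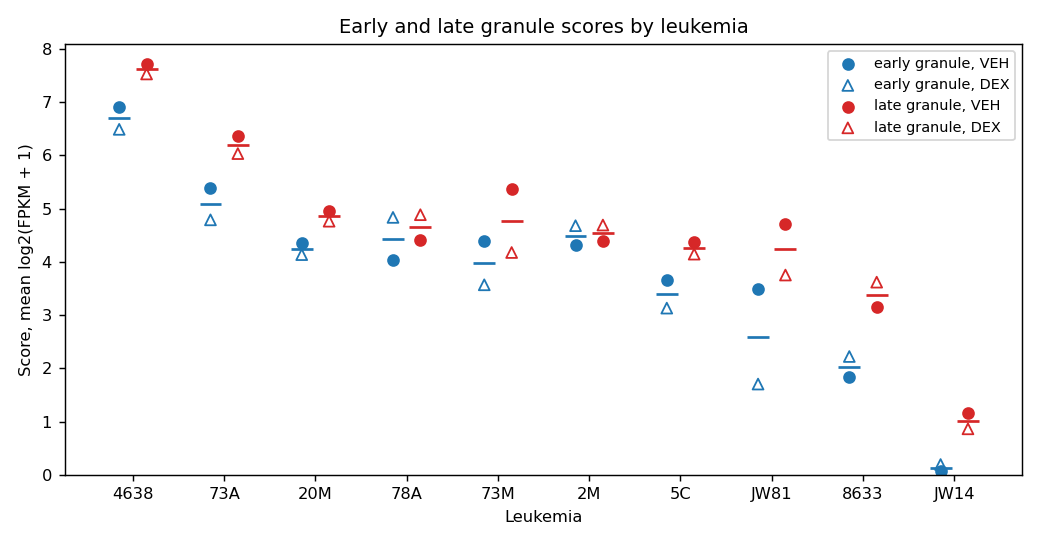
Early granule score (blue) and late granule score (red), each the mean of log2(FPKM + 1) over its genes, for the VEH (filled circles) and DEX (open triangles) library of each leukemia, with bars at the mean of the 2 libraries. Leukemias are ordered by the score of all members, and the late score exceeds the early score in each of the 10.

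Marker lists of other cell types followed these scores to different degrees. The monocyte and macrophage list (12 genes, 0 of them at 0 in every library) had a summed level of 298 (VEH) and 297 FPKM (DEX) in 4638 and of 19.1 and 12.4 FPKM in JW14, with medians of 28.1 FPKM over VEH and 40.4 FPKM over DEX libraries. Its score followed that of the members over the leukemias (r = 0.88, rho = 0.94, n = 10, and r = 0.87 without 4638 and JW14), as did those of the eosinophil list (r = 0.89, rho = 0.89, and r = 0.89 without them) and the megakaryocyte list (r = 0.88, rho = 0.95, and r = 0.81). The relation was looser for B lineage (r = 0.74, rho = 0.81, and r = 0.48), basophil and mast cell (r = 0.74, rho = 0.56, and r = 0.60) and erythroid genes (r = 0.68, rho = 0.44, and r = 0.53). The eosinophil list (6 genes) was at 47.8 and 49.8 FPKM in 4638 and 1.45 and 1.01 FPKM in JW14, the megakaryocyte list (5 genes) at 15.7 and 15.9 against 1.35 and 1.98 FPKM. Basophil and mast cell genes (5 genes) reached 190 and 197 FPKM in 4638, and B lineage genes (9 genes) 31.2 and 50.1 FPKM. Erythroid genes (10 genes) ranged from 1.94 FPKM (8633 VEH) to 774 FPKM (73M VEH). The T lineage score was lowest in 4638 (3.54) and did not follow the members over the other leukemias (r = -0.22 and rho = 0.25 over 10, r = 0.29 without 4638 and JW14). By score, 4638 was highest for all 6 of these non-T lists, as for the members, and the part of these cells in the member levels was not tested.

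The genes outside the list whose levels over the 10 leukemias were most like the late granule score were *Ifitm6* (r = 0.994), *Orm1*, *C3*, *Trem3*, *Plxnc1*, *F630028O10Rik*, *Cybb*, *Ncf1*, *Igsf6* and *Fpr2* (r = 0.974). *Cybb* and *Ncf1* encode subunits of the phagocyte NADPH oxidase, and *Fpr2* is a receptor for formylated peptides. For the early granule score they were *C3* (r = 0.983), *Ly6c2*, *Gm19557*, *F630028O10Rik*, *Orm1*, *Trem3*, *Ube2c*, *Anapc2*, *Igsf6* and *Agps* (r = 0.954). The genes on both lists were *C3*, *F630028O10Rik*, *Orm1*, *Trem3* and *Igsf6*.

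Within leukemias, most members were lower in the DEX than in the VEH column, and few passed the test. With the leukemia as a block, 4 of 32 members were called, all of them lower in DEX (*Mmp9*, *Cebpe*, *Itgam* and *Ltf*). Over all 11560 genes, 6.28% were called lower and 6.09% higher. The log2 fold change was negative for 28 of 32 members, with a median of -0.29, while the median over all genes tested was 0.00. This direction was not seen in all leukemias. In the 5 without ribosomal RNA counts, 16 of 32 members were negative and 16 positive (median -0.02, and 0.12 for the early and 0.14 for the late granule genes; without 4638, 9 negative and 23 positive, median 0.11), and in the 5 with such a library 32 of 32 were negative (median -0.70). An unadjusted p under 0.05 was found for 13 of 32 members, 12 of them lower, and for 3464 of the 11560 genes. The paired difference differed in direction between leukemias. All 34 members were lower in the DEX library in 73M, 32 in 73A and in JW81, 28 in 20M and in 4638, and 27 in 5C and in JW14. In contrast, 28 were higher in 78A, 27 in 8633 and 20 in 2M.

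**Figure D3:**
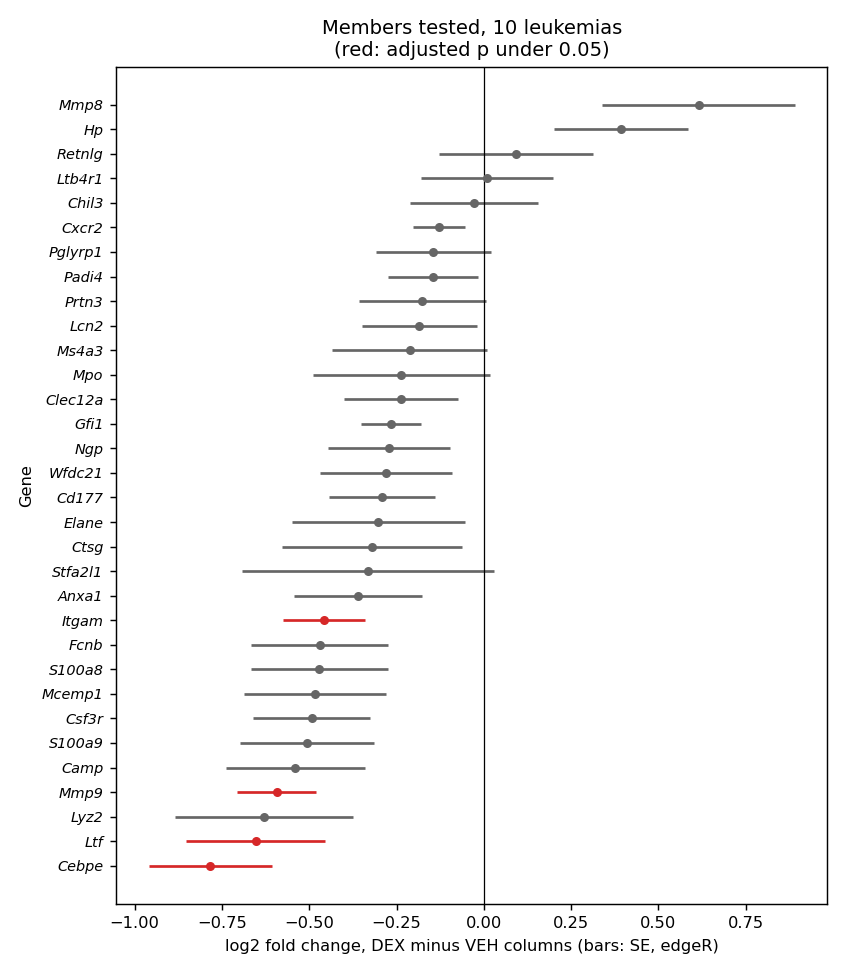
Log2 fold change of DEX over VEH columns for the 32 members tested, from the edgeR model with leukemia as a block, with bars of 1 standard error on each side. Red marks the 4 members with an adjusted p under 0.05 over all genes, and 28 of the 32 points lie left of 0.

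*Mmp9* (ENSMUSG00000017737, chromosome 2, 164940780 to 164955850, plus strand), the gelatinase of tertiary granules, ranged over the 10 VEH libraries from 0.614 to 68.8 FPKM (median 2.62) and over the 10 DEX libraries from 0.446 to 40.8 FPKM (median 2.09). These ranges overlap widely, and the difference was seen within leukemias, where the DEX library was lower in 10 of 10. The pair of 2M, at 2.26 and 2.25 FPKM, was nearly equal. The log2 fold change was -0.59 (SE 0.11, edgeR adjusted p = 0.00741).

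*Cebpe* (ENSMUSG00000052435, chromosome 14, 54710360 to 54712174, minus strand), the transcription factor of secondary granule genes, was at 0.0427 to 17.2 FPKM in VEH libraries (median 3.01) and at 0 to 9.56 FPKM in DEX libraries (median 1.77). It was lower in DEX in 9 of 10 leukemias and higher in 8633, at 0.842 (VEH) and 0.918 FPKM (DEX). The pair of JW14 rests on 2 counts (VEH) against 0 (DEX), which is under the floor of 3 counts. The log2 fold change was -0.78 (SE 0.18, adjusted p = 0.0148). *Mmp9* and *Cebpe* remained called in 10 of 10 fits that left out a leukemia in turn, with adjusted p values of up to 0.0242 and 0.0449.

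*Itgam* (median 5.36 FPKM in VEH and 4.003 FPKM in DEX libraries) was lower in DEX in 9 of 10 leukemias, with a log2 fold change of -0.46 (SE 0.12, adjusted p = 0.0259). *Ltf* (median 53.6 FPKM in VEH and 29.6 FPKM in DEX libraries) was lower in 8 of 10 and higher in 78A and 8633, with -0.65 (SE 0.20, adjusted p = 0.0493). *Itgam* was called in 6 of 10 fits without a leukemia and missed the threshold without 20M, 73A, 8633 or JW81 (adjusted p up to 0.0605). *Ltf* was called in 3 of 10, those without 5C, 78A or 8633, and reached an adjusted p of 0.106 without 20M and 0.0780 without 4638.

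The early granule genes did not pass the test. Their log2 fold changes were -0.24 for *Mpo* (SE 0.25, adjusted p = 0.557), -0.30 for *Elane* (SE 0.25, adjusted p = 0.434), -0.18 for *Prtn3* and -0.32 for *Ctsg*. Their direction depended on the leukemia. *Mpo* went from 15.6 FPKM (VEH) to 2.93 FPKM (DEX) in JW81 and from 25.5 to 49.9 FPKM in 78A. The early granule score differed by -0.27 ± 0.74 (SD, n = 10) between DEX and VEH and was lower in 6 of 10 leukemias, from -1.78 in JW81 to 0.80 in 78A. The late granule score differed by -0.21 ± 0.55 and was lower in 7 of 10, and the score of all members by -0.28 ± 0.48 and was lower in 7 of 10. For each score the mean difference was smaller than its SD between leukemias. Single leukemias moved these means, and the early score differed by -0.10 without JW81, the late score by -0.10 without 73M and by -0.13 without JW81.

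**Figure D4:**
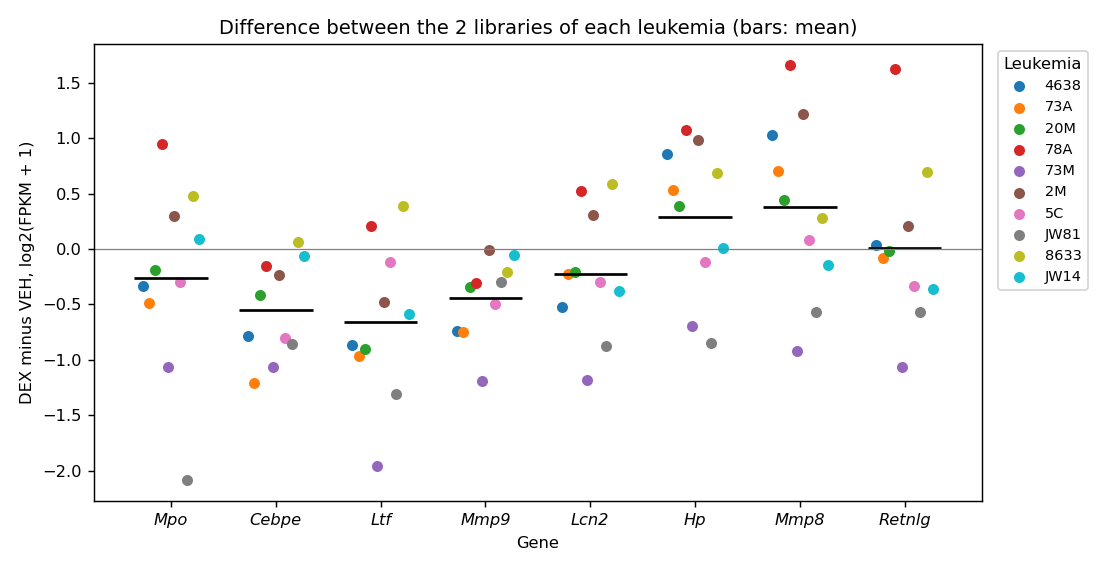
Difference in log2(FPKM + 1) between the DEX and the VEH library of each leukemia (points, coloured by leukemia) for 8 members, with bars at the mean over the 10 leukemias. *Mmp9* is at or below 0 in all 10, *Mpo* spreads from about -2 (JW81) to about 1 (78A), and *Hp* and *Mmp8* are above 0 in 7.

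Marker lists of other cell types differed between the libraries in some of these pairs and not in others. In 73M, where the member score was lower by 1.02 in DEX, the erythroid score was lower by 2.48, the B lineage score by 0.99 and the eosinophil score by 0.85, and the DEX library held ribosomal RNA counts. In 73A the member score was lower by 0.51, the erythroid score by 1.10, the B lineage score by 0.29 and the monocyte and macrophage score by 0.22. In JW81, whose DEX library also held ribosomal RNA counts, the member score was lower by 0.93, the eosinophil score by 0.19, the T lineage score by 0.13, the basophil and mast cell score by 0.12 and the monocyte and macrophage score by 0.06, and the erythroid score was higher by 0.39. In 4638 the member score was lower by 0.38 and the T lineage score by 0.35, while the erythroid score was higher by 0.81 and the B lineage score by 0.44. In 78A the member score was higher by 0.41, the monocyte and macrophage score by 0.37 and the eosinophil score by 0.34. Over the 10 leukemias, the correlation of the difference in member score with that of another list was 0.77 for eosinophil, 0.70 for basophil and mast cell, 0.59 for monocyte and macrophage, 0.49 for B lineage, 0.45 for erythroid, 0.31 for megakaryocyte and -0.17 for T lineage genes (Pearson's r, a description over values from the same 20 libraries). The part of these lists in the member differences was not tested.

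Haptoglobin (*Hp*, ENSMUSG00000031722, chromosome 8, 109575128 to 109579172, minus strand), a hemoglobin-binding protein of late granules, and neutrophil collagenase (*Mmp8*, ENSMUSG00000005800, chromosome 9, 7558456 to 7568485, plus strand) had positive log2 fold changes where the other 8 late granule genes had negative ones. *Hp* was at 0.742 to 121 FPKM in VEH libraries (median 15.4) and at 0.757 to 220 FPKM in DEX libraries (median 20.4), and was higher in DEX in 7 of 10 leukemias. In 4638 it was at 121 and 220 FPKM, in 2M at 13.3 and 27.2 FPKM and in 78A at 14.2 and 31.1 FPKM. *Mmp8* had medians of 2.39 and 5.72 FPKM and was also higher in 7 of 10, at 87.4 and 180 FPKM in 4638 and at 1.72 and 7.61 FPKM in 78A. Over all 10 leukemias neither passed the test, with 0.39 (SE 0.19, adjusted p = 0.185) for *Hp* and 0.62 (SE 0.28, adjusted p = 0.155) for *Mmp8*.

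In the 5 leukemias without ribosomal RNA counts, *Hp* was called higher in DEX with a log2 fold change of 0.91 (SE 0.088, adjusted p = 0.00422) and *Mmp8* with 1.28 (SE 0.19, adjusted p = 0.0211). They were the members called in this fit, in which 2.34% of all genes were called higher, and *Mmp9*, at -0.51, had an adjusted p of 0.0525. Without 4638, *Hp* (0.92, adjusted p = 0.0153) and *Mmp8* (1.36, adjusted p = 0.0288) were called as well, again with 2.34% of all genes called higher. In the 5 leukemias with such a library the values were -0.24 for *Hp* (adjusted p = 0.463) and -0.32 for *Mmp8* (adjusted p = 0.504), and 0 members were called, with 23 of 32 members and 2512 of all genes at an unadjusted p under 0.05 in edgeR. The difference between these sets of leukemias was not tested. With the ribosomal RNA group as a term in the model of all 10 leukemias, *Mmp9* (-0.57, adjusted p = 0.0272) and *Cebpe* (-0.76, adjusted p = 0.0433) were called, against 2.3% of all genes called lower, and *Ltf* and *Itgam* were not (adjusted p = 0.120 and 0.0822). Without 4638 this edgeR fit called 0 members, with 6 of 32 at an unadjusted p under 0.05, and left *Mmp9* at an adjusted p of 0.0614 and *Cebpe* at 0.0840, while 1.93% of all genes were called lower.

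Ratios between members within a library do not depend on its total. *Ltf* itself was lower in DEX in 8 of 10 leukemias, and in those a ratio to *Ltf* rises where the other gene falls less. The ratio of *Mmp8* to *Ltf* was higher in the DEX library in 10 of 10 leukemias, by a median of 2.30-fold, although in JW14 it rests on under 3 counts of *Mmp8* in the DEX library. *Hp* to *Ltf* was higher in 9 of 10 (median 2.43-fold) and *Retnlg* to *Ltf* in 9 of 10 (median 1.75-fold), with 5C as the exception in both. Against *Lcn2*, which was not called, *Hp* was higher in 9 of 10 (median 1.51-fold, all except JW81) and *Mmp8* in 8 of 10 (median 1.49-fold, all except JW14 and JW81). *Mpo* to *Ltf* was higher in 8 of 10 (median 1.55-fold), whereas the summed early to the summed late granule genes were higher in 5 of 10, with a median of 0.98-fold. *S100a8* to *S100a9* was higher in 6 of 10, with a median of 1.02-fold.

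**Figure D5:**
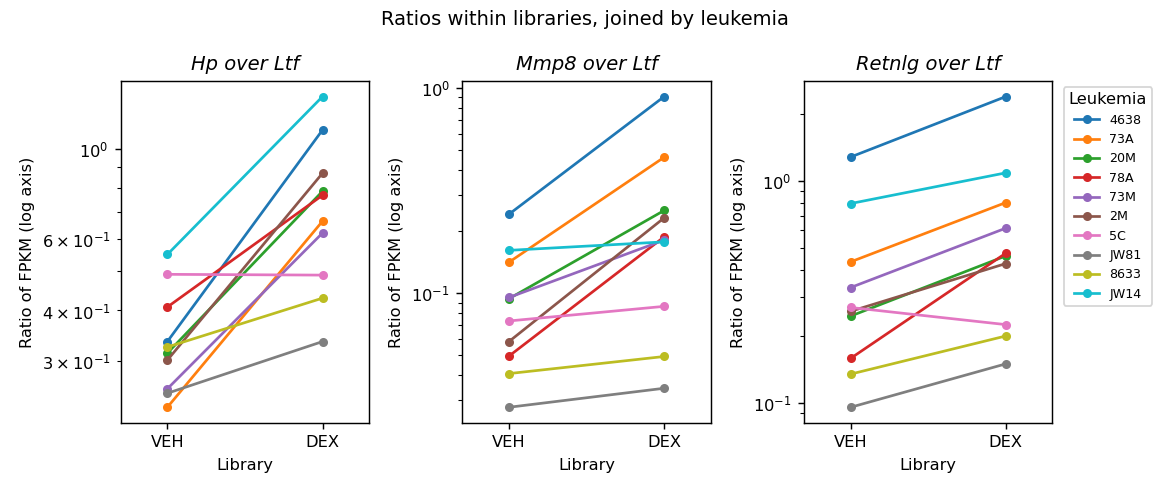
Ratio of the FPKM of *Hp*, *Mmp8* and *Retnlg* to that of *Ltf* in the VEH and DEX library of each leukemia, joined by a line, on log axes. Lines rise in 9, 10 and 9 of the 10 leukemias, and the line of 5C is nearly level for *Hp* and falls for *Retnlg*.

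The same contrast was computed relative to the members as a whole, with the member score of a library as a term in the model, an alternative chosen after seeing the data. The score contains the genes tested, so it describes their change relative to each other. In this fit 3 of 32 members were called higher in DEX, namely *Mmp8* (1.18, edgeR adjusted p = 0.00709), *Hp* (0.74, adjusted p = 0.0126) and *Retnlg* (0.57, adjusted p = 0.0457), while 1.6% of all genes were called higher and 1.07% lower. *Mmp9* (-0.43, adjusted p = 0.0572) and *Cebpe* (-0.50, adjusted p = 0.0775) missed the threshold, and 0 members were called lower by edgeR in this fit, with 10 of 32 at an unadjusted p under 0.05 in either direction. Without 4638, *Mmp8* (1.06, adjusted p = 0.0149) and *Hp* (0.67, adjusted p = 0.0142) were called and *Retnlg* was not (0.54, adjusted p = 0.0744), with 1.72% of all genes called higher.

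Of the members not yet described in this comparison, *Lyz2* (-0.63, edgeR adjusted p = 0.117), *Camp* (-0.54, 0.0902), *S100a9* (-0.51, 0.0971), *Csf3r* (-0.49, 0.0712), *Mcemp1* (-0.48, 0.129), *S100a8* (-0.47, 0.127) and *Fcnb* (-0.47, 0.128) had the larger log2 fold changes, and none passed the threshold. *Gfi1* had -0.27 with a small error (SE 0.086, adjusted p = 0.0593) and was lower in 8 of 10 leukemias. The remaining members had log2 fold changes between -0.36 (*Anxa1*) and 0.09 (*Retnlg*). *Il1b*, which was too low for the test, was lower in DEX in 10 of 10 leukemias at 3.01 FPKM or less, and was called when low genes were kept (-1.47, SE 0.30, edgeR adjusted p = 0.00347), where 3.0% of 28872 genes were called lower. Its counts were under the floor of 3 in the DEX libraries of 20M, 2M, 78A and JW14.

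Further genes of the lineage were read from lists by role. Of 5 NADPH oxidase genes, which make superoxide in phagocytes, 0 were called between DEX and VEH by edgeR, with 1 at an unadjusted p under 0.05, and DESeq2 called 1 lower, against 9.24% of all genes. Of 7 recruitment and adhesion genes tested, edgeR called 0, also with 1 at an unadjusted p under 0.05, while DESeq2, and edgeR without 5C (8.0% of all genes called lower), called 1 lower. Of 6 granulopoiesis transcription factors tested, *Cebpb*, a C/EBP factor of emergency granulopoiesis, was higher (0.57, SE 0.16, edgeR adjusted p = 0.0368) and *Runx1* lower (-0.47, SE 0.10, adjusted p = 0.0113). Over all genes, 6.09% were called higher and 6.28% lower in this edgeR fit, which also holds for the next list. *Cebpb* was called in 2 of 10 fits that left out a leukemia, those without 5C or 8633 (adjusted p 0.0153 to 0.0787). It was not called without 4638 (0.49, adjusted p = 0.0742) or with the ribosomal RNA term (0.51, adjusted p = 0.125), whereas *Runx1* was called in 10 of 10 fits. Of 10 further granule and maturation genes tested, serglycin (*Srgn*), the proteoglycan that packs granule proteins, was higher (0.41, SE 0.085, adjusted p = 0.0107), as was *Ctsc* (0.59, SE 0.14, adjusted p = 0.0200), the protease that activates the granule serine proteases. *Srgn* was called in 10 of 10 fits without a leukemia and *Ctsc* in 9 of 10, all except that without 73A (adjusted p = 0.0534). With the member score as a term, none of these 4 genes was called (edgeR adjusted p = 0.0558 for *Runx1*, 0.0610 for *Ctsc*, 0.0709 for *Srgn* and 0.228 for *Cebpb*). Without 4638 this edgeR fit called *Ctsc* (0.72, adjusted p = 0.0445) but not *Runx1* (0.0583), *Srgn* (0.0890) or *Cebpb* (0.302). With the ribosomal RNA term and 4638 left out, *Ctsc* was called (0.73, edgeR adjusted p = 0.0334). There *Runx1* (-0.45, adjusted p = 0.0579), *Srgn* (0.32, 0.0744) and *Cebpb* (0.38, 0.256) were not. *Cebpb*, *Srgn* and *Ctsc*, which were higher, are also transcribed outside neutrophils, and their source was not tested. The source of *Runx1* was not tested either. It was at 7.14 (VEH) and 5.78 FPKM (DEX) in 4638, at 4.08 and 3.61 FPKM in JW14, and highest in 73M VEH (14.1 FPKM), so its level did not follow that of the members. Of 12 T lineage genes, *Cd5* was called, lower in DEX (-0.61, SE 0.12, edgeR adjusted p = 0.00808). DESeq2 and edgeR without 5C called 2 lower, *Cd5* among them, against 9.24% and 8.0% of all genes. Without the filter on low genes edgeR also called 2 lower (3.0% of all genes). Without JW14 it called 1 lower and 1 higher (639 and 654 of all genes). Of the 10 monocyte and macrophage genes tested, DESeq2 called 0. In all 10 leukemias edgeR also called 0, with 1 at an unadjusted p under 0.05. In the leukemias without ribosomal RNA counts and without 4638, edgeR called 1 higher, against 2.34% of all genes. Of 3 basophil and mast cell genes tested, edgeR called 0, with 1 at an unadjusted p under 0.05. DESeq2 called 1 higher (991 of 11560 genes), as did edgeR without 4638 (697 genes), 8633 (567) or JW81 (488). Without the filter on low genes, edgeR called 1 of 5 higher (721 of 28872 genes).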

How the data were processed

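RNA-seq libraries of marrow from mice carrying 10 T-ALLs were analysed, 2 per leukemia. The authors made TruSeq libraries from poly(A) RNA, read both ends of each fragment, mapped the reads to mm10 with Bowtie 2 and estimated transcript levels with RSEM. The annotation and the RSEM version are not given in the sources used here. As deposited, each value is an expected count of a gene without normalization (68.3% to 74.5% of nonzero values are exactly whole as written, with no tolerance), whereas the table's name says FPKM. All 20 columns were used, 3 of them matched to a leukemia by its name alone.

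FPKM were computed from these counts, merged exon lengths of GENCODE M21 (GRCm38; 37693 genes, 96.6%) and library totals. Genes without a length held at most 0.598% of counts. Counting was not stated to use strand, so overlapping genes cannot be told apart. Counts were rounded and tested with edgeR 4.0.16 in R 4.3.3 (quasi-likelihood, TMM, Benjamini-Hochberg over 11560 genes averaging 1 FPKM or more, threshold 0.05). Both libraries of a pair come from 1 leukemia, so leukemia was a block in the comparison of DEX with VEH. The letters came from the column names, the leukemia from the labels. Standard errors were derived from the F statistic. Scores used log2(FPKM + 1), on which differences of low genes are understated, and have no p. Python 3.11.15 with numpy 2.4.6 and pandas 2.3.3 was used. The scripts were tested on simulated data.

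Alternatives were DESeq2 1.42.0, relative log expression scaling, no filter, a pseudocount of 0.1, TMM library sizes for FPKM, medians over lists, either library alone, leukemias left out in turn, no block, and the ribosomal RNA group (5 libraries above 1 count per M) as a term or a split. The member score as a term, and the ribosomal RNA and member score fits without 4638, were added after the data were seen. All members were named, and beside them genes of fixed lists that passed the test (at most 4 per list) and the 10 genes most like each granule score. The members and lists were chosen with earlier results of these data known. One gene of the B lineage list is not reported here.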

Additional observations from a re-analysis of the deposited data

Results flagged for a closer look

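Of 76 sets of 10 leukemia values examined, 7 had an extreme leukemia whose gap to its nearest neighbour was a large part of the whole range by Dixon's test at the 95% level. Chance gives about 1 in 20 such sets, and the members share their libraries, so the sets are not independent. On the log2(FPKM + 1) scale, JW14 was set apart on the low side for *S100a9* (gap over range 0.555), *Chil3* (0.514), *S100a8* (0.510), *Camp* (0.505) and *Ngp* (0.495), which are the members with high levels in the other 9 leukemias. Leukemia 4638 was set apart on the high side for *Ly6g* (0.559) and *Cxcr2* (0.483), both genes of mature neutrophils. For *Ly6g* the next leukemia, 73A, had 1.69 FPKM in its VEH and 0.457 FPKM in its DEX library.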

How the results depend on the processing

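All 32 members tested differed between leukemias with DESeq2, relative log expression scaling and each leukemia left out, and all 34 without the filter. The number called between DEX and VEH columns was 4 with leukemia as the block, 4 with relative log expression scaling, 6 with DESeq2 (*Csf3r* and *Gfi1* added) and 9 without the filter on low genes (*Il1b*, *Csf3r*, *Gfi1*, *Camp* and *S100a9* added), all lower in DEX. Over all genes, DESeq2 called 2059 of 11560 (1068 lower) and the fit without the filter 1586 of 28872 (865 lower), against 1430 of 11560 (726 lower). Leaving out 1 leukemia gave 2 to 6, with 2 without 20M or 73A and 3 without 2M, 4638, 73M, JW14 or JW81. It gave 5 without 5C and 6 without 78A or 8633. Without the replicate block (no pairing by leukemia) 0 members and 2 of all genes were called, against 1430 with it. At an unadjusted p under 0.05 that edgeR fit had 0 members and 614 genes. A term for the ribosomal RNA group left 2 members (546 genes). The 5 leukemias without ribosomal RNA counts gave 2, both higher in DEX (449 genes), and the 5 with them 0 (15 genes). The count over all genes was 717 without 20M, 718 without 73A, 768 without 2M, 954 without 73M and 1002 without JW81. It was 1163 without 8633, 1195 without 78A, 1293 without JW14, 1467 without 4638 and 1889 without 5C. With the member score as a term it was 309. With 4638 left out as well, the ribosomal RNA term gave 0 members (6 at an unadjusted p under 0.05; 463 genes called), the leukemias without ribosomal RNA counts 2 (487 genes) and the member score as a term 2 (377 genes). The median log2 fold change over all genes tested was 0.04 or less in size in each of these fits. The mean member score over leukemias was 3.63, 3.16 with a pseudocount of 0.1 and 3.22 as a median over the list. Depth limits JW14 most: its DEX library has 8226528 counts, and 3 counts of *Mpo* are 0.107 FPKM there against 0.0232 FPKM in its VEH library.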
